A study of Mus musculus with 21 samples.

Results

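The set described here holds 10 genes, Hs3st1, Nrn1, Pde1b, Snhg18, Jph1, Ppp1r1a, Klhl29, Lratd1, Camk1d and Frmd4a, read by 13 probe sets of the 45037 non-control probe sets on the array, on which 18193 genes have a probe set of their own. They were picked from these data as strong falls with little spread among replicates in the Sey mutant. Their Sey values are therefore a description without a test, and for the members tests are given only for the other mutants. These tests use an estimate of spread shared by all 21 arrays. The choice for little spread in Sey therefore enters their p-values. The working name of the set said that the genes were lost in Sey and nowhere else. The data go against that name in part, because every gene had a probe set above the level of dim probe sets on all 4 Sey mutant arrays. For Jph1 this rests on its dimmer probe set, which averaged 5.88 in these mutants and overlapped its controls. The brighter probe set of Jph1 lay at or below that level on all 4 arrays. In addition, 3 of the 10 were called lower in another mutant, although each of these calls was lost with that line's arrays fitted alone. Over all probe sets, 0.921% were called lower in Leca4 and 0.142% in Leca2.

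Rostral cerebral cortex was taken from mouse embryos at embryonic day 14 that carried a mutation of Pax6, a transcription factor of cortical progenitor cells, and from wild-type littermates. The 3 alleles were Sey (Small eye), with 4 mutant and 3 control arrays on C57BL/6J x DBA/2J (B6D2F1), Leca4, with 3 mutant and 4 control arrays on 129 S6, and Leca2, with 4 mutant and 3 control arrays on 129 S6. Sey is known as a nonsense allele, whereas Leca4 and Leca2 are known as amino acid substitutions in different subdomains of the DNA-binding paired domain. The labels name the arrays biological replicates, give no zygosity and no sex, and do not say how many embryos went into a sample, so a p-value measures the spread between these samples. Allele and strain cannot be told apart between Sey and the Leca lines.

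Pax6 is best known in the cortex for holding radial glia, the neural stem cells that divide at the ventricle, in a cortical programme, and for turning on genes of the intermediate progenitors through which many glutamatergic neurons arise. Young neurons then extend axons and set up calcium and cyclic nucleotide signalling. Several of the 10 genes act there: calcium bound to calmodulin switches on the phosphodiesterase Pde1b and the kinase Camk1d, cyclic AMP acts through protein kinase A, and the phosphorylated form of Ppp1r1a blocks protein phosphatase 1. Hs3st1 modifies sugar chains that reach the cell surface, Nrn1 sits on that surface, and Snhg18 is transcribed into a noncoding RNA.

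The genes are spread over chromosomes 1, 2, 5, 12, 13 and 15. Pde1b and Ppp1r1a are direct neighbours on chromosome 15, with no annotated gene between them. RefSeq windows of 300 bases (GRCm38.p6), from 250 bases before a transcription start to 50 after it, were matched for 7 of the 10 genes. No window was used for Nrn1, Jph1 and Ppp1r1a. Of the 16277 starts on the reverse strand, 7.67% had a start on the other strand within 250 bases that pointed away from them, and Snhg18 and Klhl29 were among them. These windows are printed because the genes on the other side could be followed on the same arrays. The start of Sema5a, a transmembrane semaphorin that guides axons, lay 151 bases from that of Snhg18, and the start of 2810032G03Rik lay 38 bases from that of Klhl29. Capitals mark the stretch between both starts, with 78.3% G or C for Snhg18 at chr15:32244613-32244912 (minus strand) and 64.1% for Klhl29 at chr12:5375633-5375932 (minus strand).
Snhg18: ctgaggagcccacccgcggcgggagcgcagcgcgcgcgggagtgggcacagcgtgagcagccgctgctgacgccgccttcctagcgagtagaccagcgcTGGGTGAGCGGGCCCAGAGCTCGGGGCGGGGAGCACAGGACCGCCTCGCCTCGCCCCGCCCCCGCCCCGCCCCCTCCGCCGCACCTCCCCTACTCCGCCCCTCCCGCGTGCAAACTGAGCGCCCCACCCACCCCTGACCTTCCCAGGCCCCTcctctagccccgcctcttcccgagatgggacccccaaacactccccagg
Klhl29: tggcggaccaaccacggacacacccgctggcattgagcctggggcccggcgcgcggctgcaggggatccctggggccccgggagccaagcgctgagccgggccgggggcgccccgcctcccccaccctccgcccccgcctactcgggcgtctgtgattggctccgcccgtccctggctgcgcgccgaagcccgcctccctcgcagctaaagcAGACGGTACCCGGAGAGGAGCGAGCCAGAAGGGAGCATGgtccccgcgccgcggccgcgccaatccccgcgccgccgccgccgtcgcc

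The other windows shown are the 3 of the 13 member windows that held CAGATG, a form of the CANNTG letters to which proneural basic helix-loop-helix factors bind. They are shown so that a reader can see where these letters lie. CAGATG and TAATTA, a core of homeodomain sites, are in capitals on either strand, so that CATCTG is the same site read from the other side. The window of the second listed start of Pde1b lies at chr15:103506876-103507175 (plus strand), that of Camk1d at chr2:5675997-5676296 (minus strand) and that of Frmd4a at chr2:4400726-4401025 (plus strand).
Pde1b: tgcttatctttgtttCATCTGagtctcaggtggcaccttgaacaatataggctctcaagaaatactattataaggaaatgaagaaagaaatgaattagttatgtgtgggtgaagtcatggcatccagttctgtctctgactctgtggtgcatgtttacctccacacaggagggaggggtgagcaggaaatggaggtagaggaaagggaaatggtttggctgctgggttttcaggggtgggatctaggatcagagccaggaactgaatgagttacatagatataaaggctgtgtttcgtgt
Camk1d: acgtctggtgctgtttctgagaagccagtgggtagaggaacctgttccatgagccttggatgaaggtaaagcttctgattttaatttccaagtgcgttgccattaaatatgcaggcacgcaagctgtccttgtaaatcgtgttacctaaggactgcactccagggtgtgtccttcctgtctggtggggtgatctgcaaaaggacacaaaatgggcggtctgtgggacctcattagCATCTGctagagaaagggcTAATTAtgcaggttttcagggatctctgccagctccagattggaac
Frmd4a: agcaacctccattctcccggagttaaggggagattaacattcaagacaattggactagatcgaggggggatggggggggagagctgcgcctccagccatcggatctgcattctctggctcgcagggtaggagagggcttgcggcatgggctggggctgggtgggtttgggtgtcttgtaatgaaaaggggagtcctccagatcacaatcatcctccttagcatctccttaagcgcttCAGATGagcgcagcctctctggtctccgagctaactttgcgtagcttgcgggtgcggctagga

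Of all 32851 windows of this length, 17.2% held CAGATG, against 3 of 13 here, in 3 of 7 genes. CANNTG, which includes CAGATG and CAGCTG, was in 72.3% of all windows and 9 of 13 here. TAATTA was in 5.29% of all windows and in 1 of 13, the Camk1d window above. CAGCTG, found in 16.3% of all windows, was in 0 of 13. All motifs were searched on both strands. A match is a description of letters and not a binding site.

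Values below are log2 expression values per probe set, in which 1 unit is a factor of 2, and a change is the mutant mean minus the mean of the wild-type littermates with the standard error (SE) of the fit. Levels are compared only within a probe set and a line, since probes differ in brightness and each line seems to have been scaled on its own. The 40th percentile of an array, which served as the level of dim probe sets, was between 5.37 and 5.6. Arrays of a group correlated at Pearson's r of at least 0.9931. Xist on these arrays read 3 Sey mutants as female and 1 as male against 3 male controls. In Leca2 it read 2 mutants as female and 2 as male against 3 female controls. In Leca4 1 mutant and 1 control were read as female, against 2 male mutants and 3 male controls. Sex was therefore added to the fit as an alternative. Pax6 mRNA itself was higher in all 3 mutants, by 0.56 ± 0.09 in Sey, 0.49 ± 0.09 in Leca4 and 0.93 ± 0.09 in Leca2 (SE; adjusted p in limma 4.76e-04, 0.00660 and 2.94e-05), from a probe set that does not separate mutant from wild-type transcript. The Leca4 call was lost with the Leca4 arrays fitted alone or with a replicate block.

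In Sey, the probe set that represents each of the 10 genes lay below all its controls on every mutant array. The fitted changes ran from -0.69 for Frmd4a to -2.61 for Lratd1, with a median of -1.55, beside a median of -0.01 over all genes on the array. Counting all 13 probe sets, 11 met the call used elsewhere (adjusted p under 0.05 in limma) in the lower direction, where 4.0% of all probe sets did, and the same 11 did not overlap their controls, where 9.5% of all probe sets lay wholly below. Because the members were chosen on this contrast, nothing is read from those counts. Among all 45037 probe sets ordered from the strongest fall, Lratd1 stood at place 12, Pde1b at 23, Nrn1 at 36, Ppp1r1a at 55, Hs3st1 at 64, Snhg18 at 95, Camk1d at 181, Klhl29 at 202 and Frmd4a at 549. Frmd4a had the smallest fall in the set, and Jph1, whose mutant values are only a bound, was given no place. With sex in the fit, and Jph1 left out for the same reason, the fitted changes ran from -0.73 for Frmd4a to -2.44 for Lratd1. In bulk tissue, fewer cells of a type and less RNA per cell cannot be told apart.

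**Figure D1:**
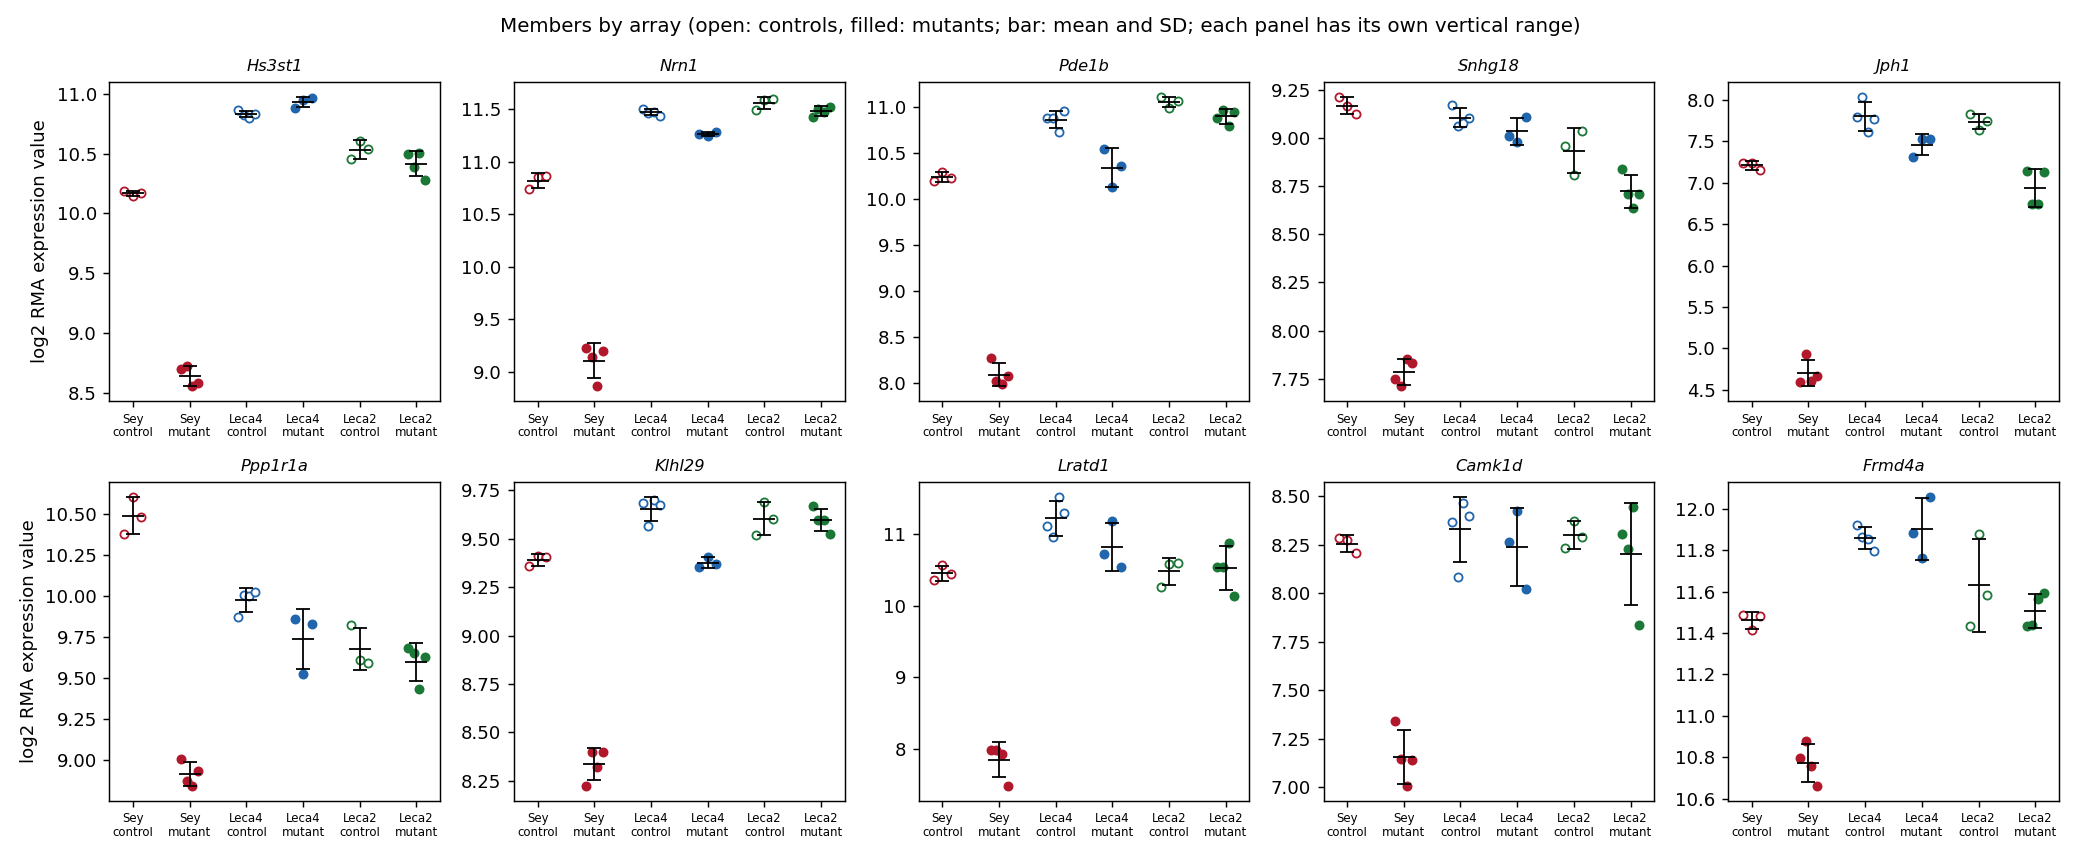
Log2 expression value (vertical axis, each panel with its own range) of the probe set that represents each of the 10 genes on all 21 arrays, by group (horizontal axis). Open points are wild-type littermates, filled points are mutants, and bars give the mean and SD; in each panel the 4 Sey mutants lie below every Sey control, while the Leca groups lie close together or overlap for most genes.

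Hs3st1, which makes a cell-surface sugar, and Nrn1, a cell-surface protein, come first. Hs3st1 is a Golgi enzyme that adds a rare sulfate group to heparan sulfate, the sugar chain that holds growth factors and guidance cues at the cell surface. Its probe set (1423450_a_at) read 10.19, 10.14 and 10.17 in the Sey controls and 8.71, 8.72, 8.56 and 8.59 in the Sey mutants, a change of -1.52 ± 0.06 (SE) or 2.88-fold. It read 10.86, 10.82, 10.80 and 10.83 in the Leca4 controls and 10.88, 10.95 and 10.96 in the mutants. Here the Leca4 mutants lay just above all their controls, yet the change of 0.10 ± 0.06 (SE; adjusted p = 0.520 in limma) was not called. In Leca2 the controls read 10.45, 10.61 and 10.54 and the mutants 10.50, 10.38, 10.50 and 10.28, with overlap. The Leca2 change was -0.12 (95% interval -0.25 to 0.01; adjusted p = 0.835).

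Nrn1 encodes neuritin, a small protein anchored to the membrane that promotes the growth of neurites. Its probe set (1428393_at) read 10.74, 10.85 and 10.87 in the Sey controls and 9.22, 9.14, 8.86 and 9.20 in the Sey mutants, a change of -1.71 ± 0.07 (SE) or 3.28-fold. The Leca4 controls read 11.51, 11.46, 11.48 and 11.44 and the mutants 11.27, 11.25 and 11.28. All 3 Leca4 mutants lay below all 4 controls by a small step. The change of -0.21 ± 0.07 (SE) had an adjusted p of 0.166 in limma and was not called, and without Sey mutant replicate 3, which enters the shared estimate of spread, that p was 0.0474. In Leca2 the controls read 11.49, 11.59 and 11.60 and the mutants 11.42, 11.51, 11.48 and 11.53, which overlapped (change -0.08, 95% interval -0.23 to 0.07).

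Among the genes of calcium and cyclic nucleotide signalling, Pde1b was low in Sey and also fell in Leca4. Pde1b breaks down cyclic AMP and cyclic GMP when calmodulin carries calcium. Its probe set (1449420_at) read 10.19, 10.29 and 10.22 in the Sey controls and 8.27, 8.02, 7.99 and 8.08 in the Sey mutants, a change of -2.15 ± 0.09 (SE) or 4.42-fold. The Leca4 controls read 10.88, 10.88, 10.73 and 10.96 and the mutants 10.54, 10.12 and 10.35, with no overlap. That was a fall of 0.52 on the log2 scale (change -0.52 ± 0.09, SE), or 1.43-fold, at an adjusted p of 0.00198 in limma. The Leca2 controls read 11.11, 10.99 and 11.06 and the mutants 10.88, 10.96, 10.79 and 10.95, also without overlap, but the change of -0.16 (95% interval -0.34 to 0.03; adjusted p = 0.862) was not called. Leca4 minus Leca2 came to -0.36 (95% interval -0.62 to -0.10), which did not pass either (adjusted p = 0.227). With the Leca4 arrays fitted alone, the Leca4 fall of Pde1b kept its size but missed the threshold (adjusted p = 0.0835).

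Ppp1r1a, the direct neighbour of Pde1b, is an inhibitor of protein phosphatase 1 that protein kinase A switches on. Its probe set (1422605_at) read 10.38, 10.60 and 10.48 in the Sey controls and 9.01, 8.87, 8.84 and 8.93 in the Sey mutants, a change of -1.58 ± 0.09 (SE) or 2.98-fold. In Leca4 it read 9.87, 10.003, 9.997 and 10.03 in controls and 9.86, 9.52 and 9.82 in mutants. The mutants lay below the controls by less than 0.01, and the change of -0.24 (95% interval -0.42 to -0.05; adjusted p = 0.210 in limma) was not called. Leca2 controls at 9.82, 9.61 and 9.59 and mutants at 9.68, 9.65, 9.43 and 9.63 overlapped, with a change of -0.08 (95% interval -0.26 to 0.11). Both neighbours had the same order of changes, Sey below Leca4 below Leca2, as did Nrn1, Klhl29 and Lratd1. Sey as the lowest follows from how the members were picked. The differences between Leca4 and Leca2 were not called for either neighbour.

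Camk1d is a kinase switched on by calcium and calmodulin. The brightest of its 3 probe sets (1452050_at) read 8.28, 8.28 and 8.21 in the Sey controls and 7.34, 7.14, 7.00 and 7.14 in the Sey mutants, a change of -1.10 ± 0.12 (SE) or 2.14-fold. A second one (1426389_at) gave -1.05 ± 0.15 (SE) in Sey. The third (1438643_at) stayed at the level of dim probe sets, with group means of 4.17 to 4.56, and says little about the gene. In Leca4 the brightest probe set read 8.37, 8.08, 8.47 and 8.40 in controls and 8.26, 8.42 and 8.02 in mutants, and in Leca2 8.23, 8.37 and 8.29 and 8.31, 8.23, 8.44 and 7.83. Both pairs overlapped, with changes of -0.09 (95% interval -0.35 to 0.17) and -0.10 (-0.36 to 0.16).

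Jph1 was the member that fell in Leca2. Junctophilins tie the endoplasmic reticulum to the plasma membrane, where calcium channels of both membranes meet. The brighter of its 2 probe sets (1438428_at) read 7.24, 7.24 and 7.15 in the Sey controls and 4.60, 4.93, 4.60 and 4.67 in the Sey mutants. All 4 Sey mutants lay at or below the 40th percentile of their arrays, so the fitted change of -2.51 ± 0.12 (SE) is given as a drop of at least 3.54-fold. The word lost describes this probe set, but not the second one of the gene, which is given below. The Leca2 controls read 7.83, 7.64 and 7.75 and the mutants 7.14, 6.74, 6.74 and 7.13, a fall of 0.80 on the log2 scale (change -0.80 ± 0.12, SE), or 1.74-fold, at an adjusted p of 0.00199 in limma. A gap of 0.50 separated the groups. With the Leca2 arrays fitted alone the adjusted p was 0.117. In Leca4, controls at 7.80, 8.04, 7.61 and 7.76 and mutants at 7.31, 7.53 and 7.53 did not overlap either, but the change of -0.34 ± 0.12 (SE; adjusted p = 0.154) was not called. The difference of 0.45 between the Leca4 and the Leca2 change (95% interval 0.11 to 0.80) was not called (adjusted p = 0.258).

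The 2 probe sets of Jph1 disagreed. The second one (1421520_at) stayed above the 40th percentile on all 4 Sey mutant arrays, with means of 6.00 ± 0.12 (SD, n = 3) in the Sey controls and 5.88 ± 0.09 (SD, n = 4) in the mutants, which overlapped. Its changes were -0.12 in Sey, -0.11 in Leca4 and -0.09 in Leca2, each with an SE of 0.08. A mean of both probe sets gave -1.32 for Jph1 in Sey.

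Frmd4a and Klhl29 encode cytoplasmic proteins without enzyme activity. Frmd4a is a scaffold with a FERM domain that links cytohesin to the Par polarity complex. Its probe set (1434285_at) read 11.48, 11.41 and 11.48 in the Sey controls and 10.80, 10.88, 10.76 and 10.66 in the Sey mutants, a change of -0.69 ± 0.09 (SE) or 1.61-fold. Leca4 controls at 11.92, 11.86, 11.85 and 11.80 overlapped mutants at 11.88, 11.76 and 12.06, with a change of 0.04 (95% interval -0.14 to 0.23). Leca2 controls at 11.43, 11.88 and 11.58 overlapped mutants at 11.44, 11.44, 11.56 and 11.59, with a change of -0.12 (95% interval -0.31 to 0.06).

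Klhl29 belongs to the Kelch-like family, many members of which bring substrates to ubiquitin ligases. Its probe set (1434639_at) read 9.36, 9.41 and 9.41 in the Sey controls and 8.22, 8.40, 8.32 and 8.40 in the Sey mutants, a change of -1.06 ± 0.06 (SE) or 2.08-fold. The Leca4 controls read 9.69, 9.56, 9.70 and 9.67 and the mutants 9.35, 9.41 and 9.37. No Leca4 mutant reached a control, and Klhl29 fell by 0.28 on the log2 scale (change -0.28 ± 0.06, SE), or 1.22-fold, at an adjusted p of 0.0140 in limma. The call was lost without Leca4 mutant replicate 1 (adjusted p = 0.0635) and with the Leca4 arrays fitted alone (adjusted p = 0.132). In Leca2, controls at 9.52, 9.69 and 9.60 and mutants at 9.67, 9.60, 9.60 and 9.53 overlapped, with a change of -0.01 (95% interval -0.13 to 0.12). Leca4 minus Leca2 was -0.27 (95% interval -0.45 to -0.10; adjusted p = 0.168).

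Lratd1 is a protein named for its LRAT domain. Its probe set (1425452_s_at) read 10.36, 10.57 and 10.44 in the Sey controls and 7.98, 7.98, 7.93 and 7.47 in the Sey mutants, a change of -2.61 ± 0.18 (SE) or 6.12-fold. Sey mutant replicate 4 was the lowest, well under the other 3. The Leca4 controls read 11.12, 10.96, 11.53 and 11.30 and the mutants 10.73, 11.19 and 10.55. These overlapped, and the change of -0.40 (95% interval -0.77 to -0.04; adjusted p = 0.311 in limma) was not called. Leca2 controls at 10.27, 10.58 and 10.60 and mutants at 10.55, 10.55, 10.88 and 10.14 overlapped as well, with a change of 0.05 (95% interval -0.32 to 0.41). Lratd1 had the highest SD of the set in both Leca4 groups and in the Sey and Leca2 mutants, up to 0.33 in the Leca4 mutants.

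Snhg18, a host transcript of small nucleolar RNA, is the noncoding member. Its probe set (1429027_at) read 9.21, 9.16 and 9.12 in the Sey controls and 7.75, 7.71, 7.85 and 7.83 in the Sey mutants, a change of -1.38 ± 0.07 (SE) or 2.60-fold. In Leca4 the values 9.17, 9.06, 9.08 and 9.10 of controls and 9.01, 8.98 and 9.11 of mutants overlapped, with a change of -0.07 (95% interval -0.21 to 0.06). In Leca2 the controls read 8.96, 8.81 and 9.04 and the mutants 8.84, 8.71, 8.64 and 8.71. One mutant reached the range of the controls, and the change of -0.21 (95% interval -0.35 to -0.07; unadjusted p = 0.00431, adjusted p = 0.396 in limma) was not called.

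Put side by side, few members were called in the Leca lines. In Leca4, 8 of 10 genes had a change below 0, with a median of -0.22, beside a median of 0.002 over all probe sets. All mutant arrays lay below all controls for 5 genes, Nrn1, Pde1b, Jph1, Ppp1r1a and Klhl29, where 5.52% of all probe sets did so. Hs3st1 was the gene with all mutants above all controls, where 5.63% of all probe sets did so. Of the 13 probe sets, 2 were called lower in Leca4 and 0 higher, beside 0.921% of all probe sets called lower, and 6 had an unadjusted p under 0.05. In Leca2, 9 of 10 genes had a change below 0, with a median of -0.11, beside a median of -0.003 over all probe sets. Mutants lay below controls without overlap for Pde1b and Jph1, where 3.95% of all probe sets did so. Of the 13 probe sets, 1 was called lower in Leca2, beside 0.142% of all probe sets, and 2 had an unadjusted p under 0.05. Between the Leca4 and Leca2 changes, 0 of 13 probe sets differed by limma, beside 0.806% of all, and 4 had an unadjusted p under 0.05. For the counts at an unadjusted p, here and below, no share over all probe sets was taken, so nothing is read from them. The change in Sey was below the change in both Leca lines for all 10 genes, which follows from how they were picked. The Sey change minus the Leca4 change ran from -0.73 (Frmd4a) to -2.21 (Lratd1), and the Sey change minus the Leca2 change from -0.56 (Frmd4a) to -2.66 (Lratd1).

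**Figure D2:**
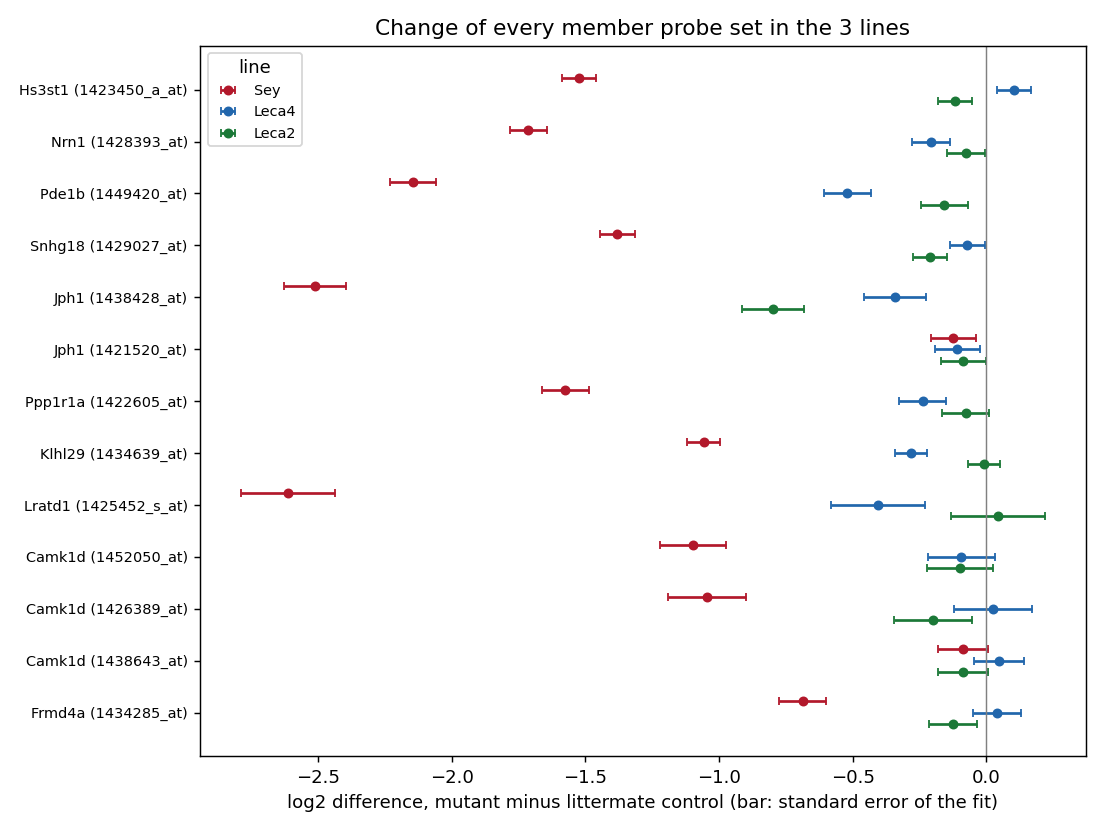
Change of all 13 member probe sets (rows) as the log2 difference of mutant minus littermate control (horizontal axis), with bars for the SE of the fit, in Sey (red), Leca4 (blue) and Leca2 (green). The Sey points of 11 probe sets lie at -0.69 or lower, each to the left of the Leca points of its own row; over all rows the Leca points range from -0.80 (Jph1 in Leca2) to 0.10 (Hs3st1 in Leca4).

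With each array set against the control mean of its line, the members followed each other over the 21 arrays. Pearson's r of a gene with the mean of the other 9 ran from 0.91 for Frmd4a to 0.99 for Nrn1. These points share the line and the Sey step by which the genes were picked, so r is a description. The 5 other genes with the highest r to the mean of the members were Znrf2 (0.984), Kif26b (0.984), Scrn1 (0.982), Kcng1 (0.982) and Limch1 (0.981). Their Sey changes were -0.93, -2.37, -0.73, -1.19 and -1.11 in that order. No change of these 5 genes was called in Leca4 or Leca2, where they ran from -0.12 to 0.01. The Leca arrays entered r, so both the Sey fall and the small Leca changes follow from how these genes were picked.

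Genes next to the members on the chromosome were examined after the members' values had been seen. For each member the nearest gene with a probe set on either side was taken, which gave 18 genes besides Pde1b and Ppp1r1a themselves. In Sey 3 of them fell and 2 rose, beside 5.59% and 6.4% of all genes, with a median change of -0.06. The gene that moved most was Sema5a, which shares its start region with Snhg18. Sema5a read 9.23, 9.24 and 9.61 in the Sey controls and 7.05, 7.62, 7.42 and 7.29 in the Sey mutants, a fall of 2.02 on the log2 scale (change -2.02 ± 0.19, SE; adjusted p = 7.66e-07 in limma), or 4.04-fold. Its second bright probe set fell by 2.08 ± 0.13 (SE; adjusted p = 3.03e-09), as did a dim one by 0.97 ± 0.16 (SE; adjusted p = 2.93e-04), while another dim one was not called (0.16 ± 0.11, SE; adjusted p = 0.490). In Leca4 Sema5a mutants scattered from 8.28 to 9.29 around a change of 0.00 (95% interval -0.40 to 0.41). In Leca2 the change of Sema5a was -0.57 (95% interval -0.97 to -0.16), which was not called (adjusted p = 0.509), as for Snhg18.

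The partner of Klhl29, the RIKEN transcript 2810032G03Rik, was dim. It read 5.74, 5.50 and 5.70 in the Sey controls and 5.26, 5.30, 5.26 and 4.92 in the Sey mutants, all 4 of which lay at or below the 40th percentile. The drop was at least 1.19-fold (adjusted p = 0.00457 in limma), and with sex in the fit it missed the threshold (adjusted p = 0.0516). Next to Pde1b on its other side, Nckap1l changed by -0.18 ± 0.09 (SE; adjusted p = 0.258), and Glycam1 beyond Ppp1r1a by 0.01 ± 0.10. Fam107b, near Frmd4a, fell by 0.30 (adjusted p = 0.00628) and Cdc123, near Camk1d, rose by 0.25 (adjusted p = 0.00406). With sex in the fit these last calls were also lost (0.0614 and 0.0510). F13a1, near Nrn1, rose by 0.46 in Sey (adjusted p = 0.0348) at a dim level. Without Sey control replicate 2 or 3, or without Sey mutant replicate 1, 2 or 4, that call was lost. F13a1 was also the one neighbour called in Leca4, where it rose by 0.74 ± 0.13 (SE; adjusted p = 0.00352), a call lost with the Leca4 arrays fitted alone.

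**Figure D3:**
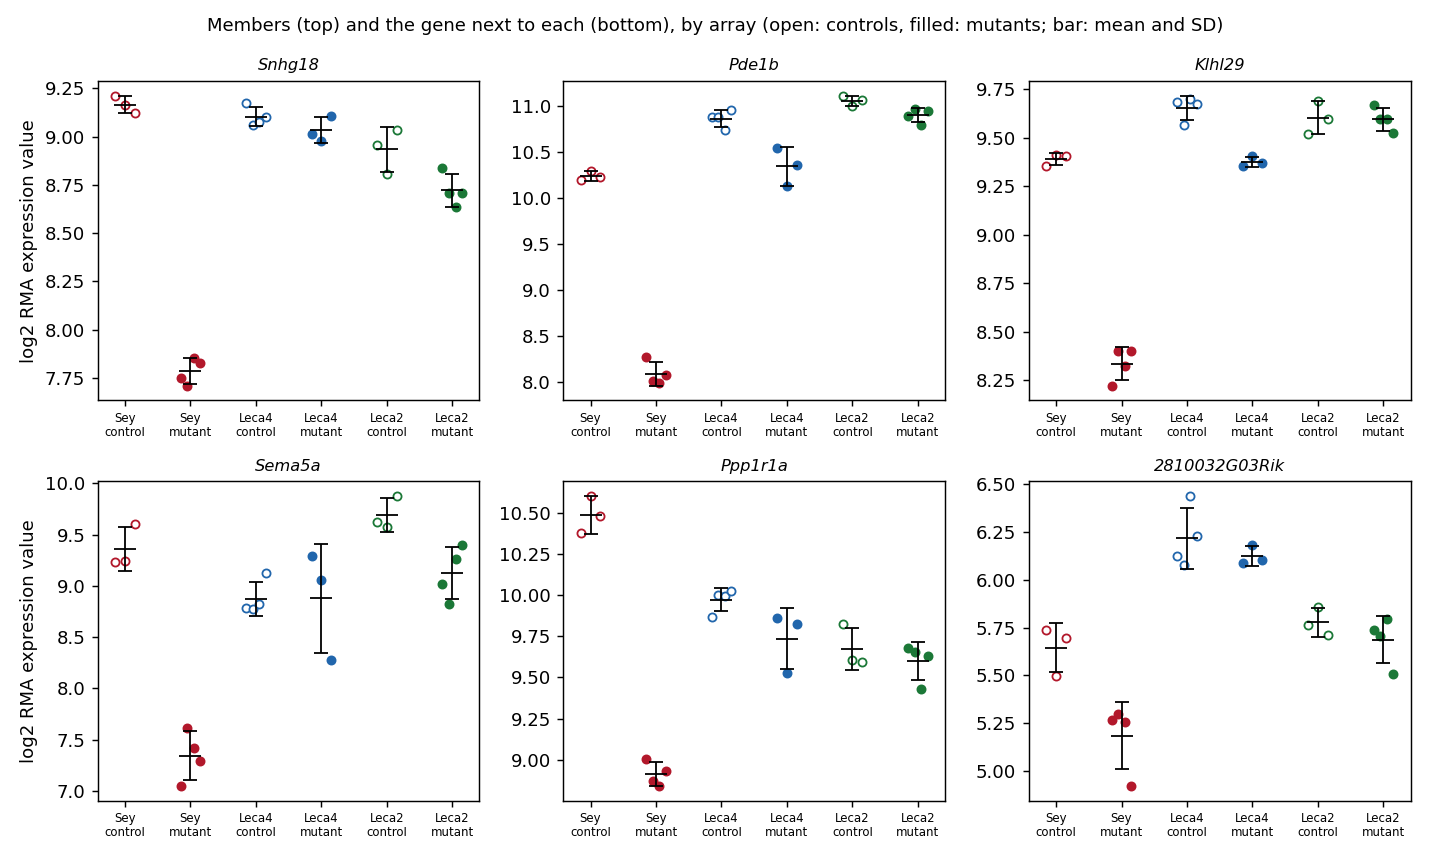
Log2 expression value (vertical axes) by array and group (horizontal axes) of Snhg18, Pde1b and Klhl29 in the upper row and of the gene next to each, Sema5a, Ppp1r1a and 2810032G03Rik, in the lower row; open points are controls, filled points mutants, bars mean and SD. In Sey each pair is lower in the mutants, from 9.36 to 7.35 (means) for Sema5a, whereas its Leca4 mutants spread around their controls.

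Some of the nearest relatives of the members, listed by gene family and not by their change, fell in Sey as well. Of 18 relatives on the array, 6 fell and 0 rose in Sey, with a median of -0.21. Over all genes, 5.59% fell and 6.4% rose, with a median of -0.01. Of the calls among relatives, 3 held with sex in the fit or without Sey control replicate 3. Ppp1r1b (DARPP-32), the relative of Ppp1r1a known from dopamine-responsive neurons, fell by 0.94 ± 0.15 (SE; adjusted p = 2.87e-04 in limma). Hs3st4, a sister enzyme of Hs3st1, fell by 1.09 ± 0.23 (SE; adjusted p = 0.00315), and the junctophilin Jph4 fell by 0.49 ± 0.10 (SE; adjusted p = 0.00183). The other 3, Pde1c, Lratd2 and Hs3st3a1, fell by 0.45, 0.49 and 0.37 with adjusted p of 0.0139, 0.0253 and 0.0467, all lost with sex in the fit. Of these, Pde1c was lost without Sey control replicate 2 or 3, and Lratd2 without Sey control replicate 1 or 3 or mutant replicate 1 or 2. Hs3st3a1 was lost in 12 of the fits without 1 array.

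In Leca4 Pde1c and Hs3st3a1 were higher in the mutants. Pde1c rose by 1.09 ± 0.11 (SE; adjusted p = 6.45e-06 in limma) and Hs3st3a1 by 0.79 ± 0.11 (SE; adjusted p = 3.73e-04), and both calls held without any single array. In Leca4 these were the 2 relatives called, beside 1.89% of all genes that rose and 1.04% that fell. In Leca2, where 0.0879% of all genes rose and 0.192% fell, 0 relatives were called by limma and 2 had an unadjusted p under 0.05, of which Pde1c changed by -0.52 ± 0.11 (SE; adjusted p = 0.0666). Pde1a, a relative of Pde1b that the same calmodulin signal switches on, changed by 0.08 in Sey without passing the test, and Camk1 and Pnck, kinases of the Camk1d family, by 0.05 and -0.01.

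**Figure D4:**
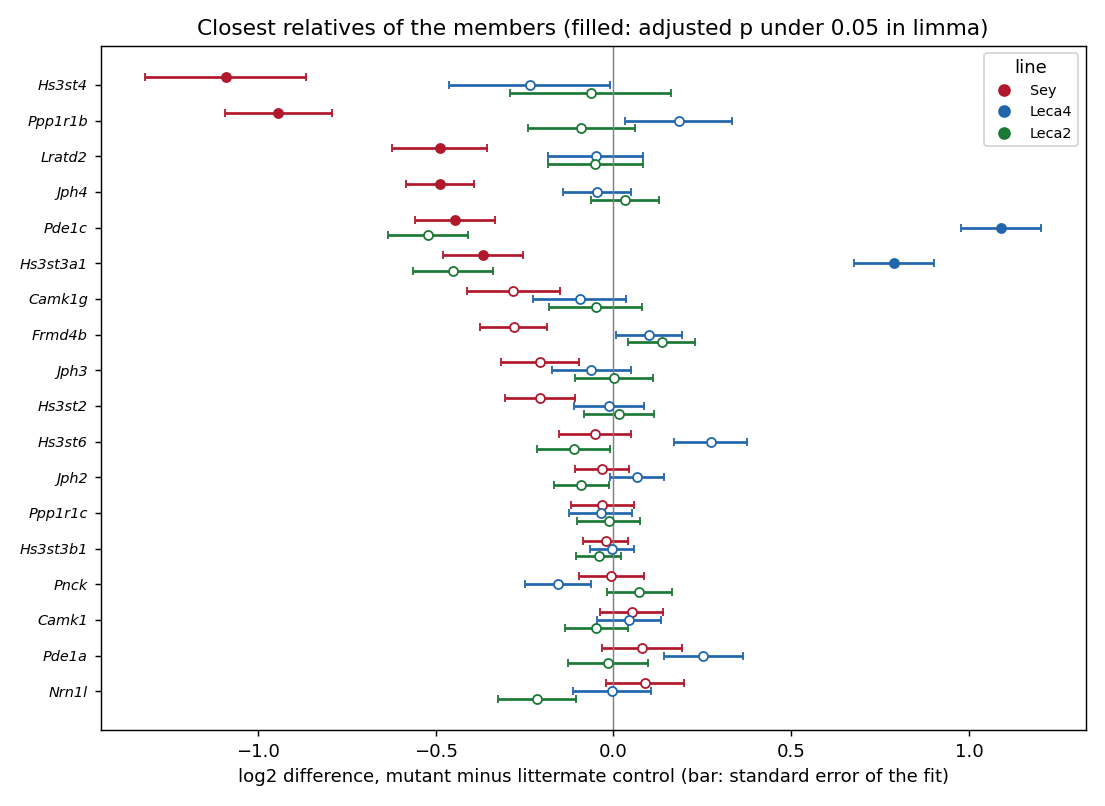
Log2 difference of mutant minus littermate control (horizontal axis) for the 18 nearest relatives of the members on the array (rows), with bars for the SE, in Sey (red), Leca4 (blue) and Leca2 (green). Filled points passed an adjusted p under 0.05 in limma; 6 Sey points on the left are filled, and Pde1c and Hs3st3a1 are filled on the right in Leca4.

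The pathways around the members changed in part in Sey. Their lists include relatives, so the falls of Hs3st4, Hs3st3a1, Pde1c, Ppp1r1b and Jph4 given above are counted again in them. For comparison, 5.59% of all genes fell and 6.4% rose, and the median over all genes was -0.01. Of 29 other genes of heparan sulfate synthesis and editing, 8 fell and 2 rose, in all 6 with sex in the fit. The syndecan core protein Sdc3 fell by 0.71 ± 0.08 (SE; adjusted p = 5.75e-06 in limma) and the sulfotransferase Hs6st2 by 0.97 ± 0.11 (adjusted p = 9.79e-06), while Sdc1 rose by 0.43 ± 0.09 (adjusted p = 0.00195). In Leca4, 4 of these 29 rose and 2 fell, beside 1.89% and 1.04% of all genes. Among the falls was Gpc3, a glypican, by 0.87 ± 0.13 (adjusted p = 5.34e-04). The rises of Hs2st1 and Sdc3 were lost without Leca4 control replicate 1 or 3 or mutant replicate 1, that of Hs2st1 also without mutant replicate 3, and that of Sdc3 without control replicate 2 or mutant replicate 2. Gpc3 also fell in Leca2, by 0.89 ± 0.13 (adjusted p = 0.00199; 0.168 with the Leca2 arrays fitted alone), the one call of this list there.

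Of 16 genes of calmodulin signalling (calmodulin-dependent kinases, calcineurin subunits, the calmodulin-binding Nrgn and Pcp4, and Creb1), 6 fell and 0 rose in Sey, with a median of -0.22. Camk2g fell by 0.32 ± 0.06 (SE; adjusted p = 0.00259 in limma) and Camkk2, a kinase of the same cascade as Camk1d, by 0.39 ± 0.10 (adjusted p = 0.0111; not called without Sey control replicate 2). With sex in the fit 1 of these 6 calls was left, and 3 without Sey control replicate 1 or 2 or without mutant replicate 4. Of 26 genes of cyclic nucleotide turnover and protein kinase A, 5 fell and 0 rose. Among them were the phosphodiesterase Pde4b, by 1.06 ± 0.11 (SE; adjusted p = 3.01e-06), and the regulatory kinase subunits Prkar2b, by 0.71 ± 0.11 (adjusted p = 2.93e-04), and Prkar1b, by 0.87 ± 0.17 (adjusted p = 0.00214). This count was 3 with sex in the fit and 3 without Sey control replicate 2 or 3.

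Of 14 genes of protein phosphatase 1 and its inhibitors, 4 fell and 1 rose in Sey. Ppp1r16b, a regulatory subunit, fell by 1.15 ± 0.20 (SE; adjusted p = 5.40e-04 in limma) and the inhibitor Ppp1r14a by 0.68 ± 0.12 (adjusted p = 6.42e-04). This count was 3 with sex in the fit, and 3 without Sey control replicate 1 or 3 or without mutant replicate 3 or 4. Of 16 genes of calcium release and membrane junctions, 7 fell and 0 rose, with a median of -0.23. Stim1, the calcium sensor of the endoplasmic reticulum, fell by 0.29 ± 0.06 (SE; adjusted p = 0.00303), its channel Orai1 by 0.38 ± 0.08 (adjusted p = 0.00435) and the calcium channel Cacna1d by 0.73 ± 0.15 (adjusted p = 0.00365). In the calmodulin list 0 genes were called by limma in either Leca line, with 1 at an unadjusted p under 0.05 in each. In the junction list 0 were called, with 1 at such a p in Leca4 and 0 in Leca2. The cyclic nucleotide and phosphatase lists had 1 rise each in Leca4, Pde1c (given above) and Ppp1r14a. Ppp1r14a rose there by 0.46 ± 0.12 (SE; adjusted p = 0.0458 in limma), a call lost in 14 of the fits without 1 array and with sex in the fit. In Leca2 0 genes of these 2 lists were called, with 2 and 0 at an unadjusted p under 0.05.

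The families around Frmd4a, Klhl29 and Snhg18 were set beside the 5.59% of all genes that fell and 6.4% that rose in Sey. Of 17 FERM, cytohesin and polarity genes, 2 fell and 1 rose in Sey, a count of 1 in all without Sey control replicate 1. This count was 0 with at least 1.4-fold required, 5 with a gene's probe sets averaged, and 6 of 16 with a filter at the 60th percentile. Cyth1, a cytohesin, fell by 0.40 ± 0.06 (SE; adjusted p = 2.59e-04 in limma) in Sey and by 0.32 ± 0.06 (adjusted p = 0.00760) in Leca4, where Pard3, a core Par protein, rose by 0.50 ± 0.10 (adjusted p = 0.00537). Of 32 Kelch-like genes, 3 fell and 2 rose in Sey. Klhl13 rose by 0.84 ± 0.10 (SE; adjusted p = 7.52e-06), Klhl35 rose by 1.15 ± 0.15 (adjusted p = 2.81e-05), and Klhl5 fell by 0.56 ± 0.08 (adjusted p = 7.71e-05). Of 13 other small nucleolar RNA host genes, 0 were called in any line by limma, with 6 at an unadjusted p under 0.05 in Sey, 2 in Leca4 and 0 in Leca2, and a median of -0.02 in Sey. Without Leca4 control replicate 4, Sey control replicate 3 or Sey mutant replicate 3 or 4, the Sey count was 1, 2, 1 and 1.

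Markers of neurons and of other cells moved in the same Sey arrays, in which 5.59% of all genes fell and 6.4% rose. Of 22 markers of cortical projection neurons, 16 fell and 3 rose in Sey, with a median of -0.58. Slc17a6, a vesicular glutamate transporter, fell by 1.18 ± 0.09 (SE; adjusted p = 3.90e-08 in limma), and Neurod2, a transcription factor of young projection neurons, by 0.77 ± 0.09 (adjusted p = 4.56e-06). The summed linear level of this list was 52347 to 53212 in the Sey controls and 35931 to 38730 in the mutants. Of 19 pan-neuronal markers, 7 fell and 1 rose, with a median of -0.20, and sums of 57777 to 60961 against 50660 to 53454. That count of 8 was 5 without Sey control replicate 1. Tubb3, the tubulin of neurons, changed by 0.11 ± 0.07 (SE; adjusted p = 0.4003).

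Of 18 markers of the ventral telencephalon and of GABAergic neurons, 10 rose and 0 fell in Sey, with sums of 3053 to 3925 in controls and 13496 to 20284 in mutants. Dlx6 rose by 2.96 ± 0.18 (SE; adjusted p = 2.32e-09 in limma). Of 9 markers of Cajal-Retzius cells, 7 rose and 0 fell, with sums of 3566 to 4334 against 5162 to 7207. Of 16 intermediate progenitor markers, 6 fell and 4 rose, with sums of 20827 to 21634 against 16073 to 18365. Of 20 radial glia markers, 5 rose and 4 fell, in all 5 with sex in the fit, with sums of 61481 to 63631 against 55670 to 63964. The mutated gene Pax6 is itself among these markers, is counted as a rise and enters the sums. Of 13 subplate markers 2 rose and 2 fell. Of 12 meningeal and 6 olfactory markers, 3 and 2 rose. Some rises and falls were counted more than once. Calb2 is in the ventral and the Cajal-Retzius list, Ebf2 in the Cajal-Retzius and the olfactory list. Hs3st4, a relative of Hs3st1, is also a subplate marker. Of 14 endothelial, 10 microglial, 7 erythroid and 7 choroid plexus markers, 0 were called in Sey by limma, with 4, 0, 0 and 2 at an unadjusted p under 0.05. The part of these shifts in the members' values was not tested.

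In Leca4, 1.04% of all genes fell and 1.89% rose. Of the 22 projection neuron markers, 2 fell there (Foxp2 and Nrp1) and 3 rose (Foxp1, Lmo4 and Crym). Without Leca4 mutant replicate 1 both falls and the rise of Crym were no longer called. In the same line 0 of the 19 pan-neuronal markers were called by limma, with 3 at an unadjusted p under 0.05. In Leca2, 0 of either list were called, with 2 and 0 at such a p. The projection neuron sums overlapped between mutants and controls in both lines, at 55886 to 60407 in controls and 55027 to 60622 in mutants for Leca4, where Pde1b and Klhl29 fell. In Leca2, where Jph1 fell, they were 49945 to 57498 and 52550 to 59382. Of 10 microglial markers, 3 rose in Leca4, with sums of 1578 to 1780 in controls and 2010 to 2287 in mutants, and each of these calls was lost without Leca4 mutant replicate 1. Of 13 subplate markers, 3 rose in Leca4, with sums of 6897 to 7983 in controls and 8305 to 8816 in mutants. The part of these in the Leca4 values of the members was not tested.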

How the data were processed

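Total RNA of 21 samples was hybridized to Affymetrix arrays, 1 per sample. The deposited values are log2 expression values per probe set, which the authors made with RMA, per the submitters' processing notes; the RMA version is not given in the sources used here, nor is a genome build. The 10 genes and all gene lists were chosen with earlier results of these data known. Of 45101 probe sets, 64 controls were left out, and 932 that named several genes and 9160 that named none were used in the fit but not for genes. A gene is represented by its probe set with the highest mean. Differences were fitted without a filter with the lmFit and eBayes functions of limma 3.58.1 (R 4.3.3) as 1 linear model of the 6 groups, with 15 residual and 4.02 prior degrees of freedom. P-values are two-sided and were adjusted by Benjamini-Hochberg over all 45037 probe sets per contrast, and a gene was called under 0.05. The script was tested on simulated data.

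Named were all members, of the relatives any, of other lists up to 4 genes with the smallest p in Sey and up to 2 per Leca line, and the 5 genes most like the members. Tubb3, a marker in common use, Foxp2, Crym, Hs2st1, Nrgn, Pcp4 and Creb1 were named after their values were seen, and so were the chromosomal neighbours. Where all 4 mutants lay at or below the 40th percentile of their arrays, a fold is the control mean over the mean of that level. Replicate numbers were checked: deviations of same-numbered samples of a line correlated at -0.27 to 0.37, so the numbers do not pair samples. Alternatives were other scalings, filters and thresholds, array weights, a term for sex, a robust variance, the line's arrays alone, a replicate block, a mean over a gene's probe sets and leaving out each array. The number of arrays limits the precision. Symbols of 34741 of 34945 probe sets with 1 gene were in the RefSeq table of GRCm38.p6, used for gene order. Python 3.11.15 with pandas 2.3.3 made the tables.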

Additional observations from a re-analysis of the deposited data

Results flagged for a closer look

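In 1 of 39 groups of 4 arrays 1 array stood apart by Dixon's criterion, which chance meets in about 1 in 20 groups. Lratd1 in Sey mutant replicate 4 read 7.47, against 7.93 to 7.98 in the other 3 Sey mutants, so that its gap made up 0.898 of the range of the group. All 4 mutants lay more than 2 units below the Sey controls.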

How the results depend on the processing

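Of the alternatives run, none reversed a direction of a called value. For the members in Leca4 and Leca2, 1261 of the recomputed values kept their direction and side of the threshold, 7 lost a call and 1 gained one. In Leca4 the count of called probe sets (2) fell to 1 with a change of at least 1.4-fold required, which Klhl29 misses, and to 0 with the groups compared fitted alone. It was 0 with the replicate block, a pairing the data do not bear out (Pde1b -0.49, adjusted p = 0.0542; Klhl29 -0.28, adjusted p = 0.130, both in limma), and 1 to 3 without 1 array, the lowest without Leca4 mutant replicate 1 and the highest without Sey mutant replicate 3, where Nrn1 joined. In Leca2 the count (1) was 0 with the groups compared fitted alone, and the block left it at 1. The median Sey change of the members was -1.45 with all probe sets of a gene averaged, where Camk1d came to -0.74. Over 335 listed genes, 111 were called in Sey, 83 with sex in the fit, 90 with the block and 77 with at least 1.4-fold.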
